A study of Mus musculus with 9 samples.

Results

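The genes described here are 10 that encode subunits of the replicative DNA polymerases and of primase: *Pola1*, *Pola2*, *Prim1*, *Prim2*, *Pold1*, *Pold2*, *Pold3*, *Pold4*, *Pole* and *Pole2*. The histone-fold subunits of Pol ε, *Pole3* and *Pole4*, are not among them and are described at the end. The 10 genes were taken by name from the 22367 protein-coding genes of GENCODE release M1, which is placed on the mouse build mm9 (NCBIM37). For each gene, every BAP1 peak was listed whose middle lay within 1 kb of any annotated transcription start site (TSS), which is called a gene-proximal peak below. BAP1 is a deubiquitinase that acts on histone H2A, and the question of the experiment was which genomic regions it binds in B cells.

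The peaks came from ChIP-Seq in Ba/F3, a mouse cell line of the B cell lineage that depends on IL-3. Immunoprecipitation was done with an anti-BAP1 antibody in WT Ba/F3 cells and with an anti-FLAG M2 antibody in a stable Ba/F3 line that carries triple-FLAG-tagged murine BAP1 and is kept under puromycin. The tagged protein was an added transgene, and the labels do not state its level beside the endogenous protein. Both immunoprecipitations were sequenced once, each with input DNA of the same cells, and they stand behind 1 deposited list of 13164 peaks of 200 bp. The list carries no height or p-value and does not tell the samples apart, so no value below has a replicate error and the depth is unknown. Expression of cell type markers in Ba/F3 cells cannot be read from a list of peaks, and H2AK119ub was not analysed here.

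Replication of the genome rests on a division of labor among these subunits. The Pol α-primase complex lays down an RNA primer and extends it with a short stretch of DNA, Pol ε extends the leading strand, and Pol δ makes most of the lagging strand. Cells about to divide need all of them, and many genes of this kind are known to be transcribed most strongly around the start of S phase, in part through E2F factors.

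All 10 genes had a gene-proximal BAP1 peak, compared with 39.6% of the protein-coding genes (8850 of 22367, 95% Wilson interval 38.9 to 40.2%, counting error only). Between them they had 12 such peaks, since *Pold3* and *Pole* had 2 each and the other 8 genes had 1 each. The genes of Pol α-primase had 4 peaks at 4 genes, those of Pol δ 5 peaks at 4 genes, and *Pole* and *Pole2* of Pol ε 3 peaks at 2 genes. The genes had been picked with this count known, so it is a description of the list and not a test. Expression in Ba/F3 cells was not measured in the data used here, and its part in the count was not tested.

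The sequences under the peaks are given first, because their bases can be compared directly between the genes. For 9 of the genes, the stretch of 1 peak is shown that lies outside the annotated transcripts of that gene and of a divergent partner, written 5′ to 3′ in the direction of the gene. In 8 genes it ends at the base before the first annotated TSS, and in *Pole2* it is the whole peak, which ends further upstream. For *Pold3* the more upstream of its peaks is shown. All were read from mm9. The stretches lie at chrX:90877495-90877675 (*Pola1*), chr19:5964207-5964324 (*Pola2*), chr10:127452118-127452227 (*Prim1*), chr1:33726632-33726687 (*Prim2*), chr7:51804220-51804339 (*Pold1*), chr11:5778296-5778407 (*Pold2*), chr7:107270076-107270240 (*Pold3*), chr19:4231752-4231898 (*Pold4*) and chr12:70329335-70329534 (*Pole2*). Capitals mark matches, on either strand, to the motifs described further below, as far as they lie wholly inside the stretch shown.
Pola1 upstream stretch: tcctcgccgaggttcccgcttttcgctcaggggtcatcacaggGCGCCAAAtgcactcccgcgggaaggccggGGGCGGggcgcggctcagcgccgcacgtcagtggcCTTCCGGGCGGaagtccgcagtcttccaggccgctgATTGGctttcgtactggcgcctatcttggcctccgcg
Pola2 upstream stretch: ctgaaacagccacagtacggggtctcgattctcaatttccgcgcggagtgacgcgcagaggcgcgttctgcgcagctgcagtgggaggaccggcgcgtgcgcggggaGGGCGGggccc
Prim1 upstream stretch: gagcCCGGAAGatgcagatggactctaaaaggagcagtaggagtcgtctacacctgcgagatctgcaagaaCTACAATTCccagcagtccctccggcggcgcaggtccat
Prim2 upstream stretch: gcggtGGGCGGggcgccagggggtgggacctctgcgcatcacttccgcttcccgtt
Pold1 upstream stretch: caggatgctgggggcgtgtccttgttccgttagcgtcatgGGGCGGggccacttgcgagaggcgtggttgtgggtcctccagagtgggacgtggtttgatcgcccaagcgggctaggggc
Pold2 upstream stretch: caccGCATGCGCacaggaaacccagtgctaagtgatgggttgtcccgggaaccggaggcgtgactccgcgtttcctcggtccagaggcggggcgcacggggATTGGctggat
Pold3 upstream stretch: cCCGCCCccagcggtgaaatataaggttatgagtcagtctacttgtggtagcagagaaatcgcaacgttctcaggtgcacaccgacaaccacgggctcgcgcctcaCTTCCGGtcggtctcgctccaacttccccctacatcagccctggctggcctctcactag
Pold4 upstream stretch: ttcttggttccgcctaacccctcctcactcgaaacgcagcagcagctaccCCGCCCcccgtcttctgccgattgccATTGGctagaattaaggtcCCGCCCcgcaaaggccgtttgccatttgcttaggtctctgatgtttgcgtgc
Pole2 upstream stretch: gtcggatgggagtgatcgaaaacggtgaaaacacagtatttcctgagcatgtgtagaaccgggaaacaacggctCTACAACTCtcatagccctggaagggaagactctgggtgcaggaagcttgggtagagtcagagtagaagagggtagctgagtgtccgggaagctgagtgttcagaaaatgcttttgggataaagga

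**Figure D1:**
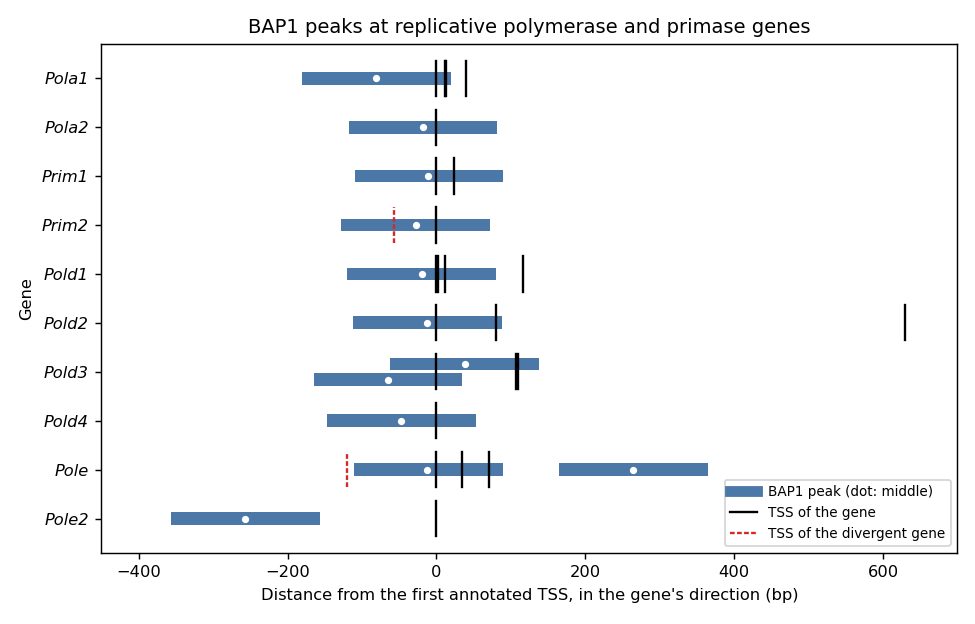
BAP1 peaks (blue bars of 200 bp, white dot at the middle) at the 10 genes, by distance in bp from the first annotated TSS in the direction of each gene. Black lines mark annotated TSSs of the gene and dashed red lines the first TSS of the divergent gene. At 9 genes a peak covers a TSS, and at *Pole2* the peak ends at -158 bp.

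The genes of the Pol α-primase complex had 1 peak each, and every one of these peaks covered the first annotated TSS. At *Pola1*, which encodes the catalytic subunit and lies on the minus strand of the X chromosome, the peak at chrX:90877476-90877675 had its middle 81 bp upstream of the TSS. It held 181 bases of upstream sequence and 19 bases of 5′ UTR, and covered 3 of the 5 annotated TSSs. At *Pola2*, the gene of the regulatory subunit that tethers the polymerase to the replication fork, the peak at chr19:5964125-5964324 was centered 18 bp upstream. The gene has a single annotated TSS, and 82 bases of the peak were 5′ UTR. At *Prim1*, which encodes the catalytic subunit of primase, the peak at chr10:127452118-127452317 was centered 11 bp upstream and reached 13 bases into the coding sequence of the first exon. At *Prim2*, the gene of the regulatory primase subunit, the peak at chr1:33726560-33726759 was centered 28 bp upstream. The 4 distances thus spanned -81 to -11 bp, where a negative value is upstream.

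Among the genes of Pol δ, *Pold1*, *Pold2* and *Pold4* had 1 peak each, all with the middle upstream of the first TSS. *Pold1* encodes the catalytic subunit with its proofreading exonuclease, and its peak at chr7:51804140-51804339 was centered 20 bp upstream. It covered 3 of the 12 annotated TSSs of the gene. *Pold2* encodes the subunit that bridges the catalytic and the accessory subunits, and its peak at chr11:5778208-5778407 was centered 12 bp upstream. *Pold4*, the gene of the smallest subunit, had a peak at chr19:4231752-4231951 that was centered 48 bp upstream of its only TSS.

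*Pold3*, whose product binds the sliding clamp PCNA, differed from the other genes of the complex in having 2 peaks that overlap. The peak at chr7:107269938-107270137 was centered 38 bp downstream of the first TSS, inside the 5′ UTR, and covered 3 annotated TSSs. The peak at chr7:107270041-107270240 was centered 65 bp upstream and covered 1. The intervals shared 97 bp, their middles were 103 bp apart, and together they spanned 303 bp. *Pold3* was the only one of the 10 genes whose nearest peak had its middle downstream of the GENCODE TSS, and with the RefSeq start this middle was upstream, at -25 bp.

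*Pole* and *Pole2*, of Pol ε, departed from the single peak over the TSS that was seen at most of the other 8 genes. *Pole*, the gene of the catalytic subunit, had a peak at chr5:110715214-110715413 that was centered 12 bp upstream and reached 7 bases into the coding sequence. A second peak at chr5:110715490-110715689 began after a gap of 76 bp. Its middle lay 193 bp downstream of the nearest annotated TSS and 264 bp downstream of the first, and all of its 200 bases fell in intron 1, which is 2783 bp long. *Pole2*, the gene of the second subunit, had 1 peak at chr12:70329335-70329534, with its middle 257 bp upstream of the single annotated TSS. It extended from -357 to -158 bp and was the only peak of the 10 nearest that covered no TSS. The start of *Pole2* in RefSeq, placed on mm9 by an exact match of its promoter sequence, was the same base as in GENCODE, so that the distance of 257 bp did not depend on which annotation was used. The RefSeq starts of *Pola1* and *Pola2* were also the same bases as in GENCODE. Those of *Prim1*, *Pold1*, *Pold2* and *Pold3* lay 43, 34, 36 and 63 bp further into the gene, which moved the nearest middles to -54, -54, -48 and -25 bp, and a peak still covered each of these starts. *Pold2* had another RefSeq start 629 bp into the gene, with the nearest middle at -641 bp and no peak over it. The start of *Pold4* was at -6 bp from that in GENCODE, with the nearest middle at -42 bp and a peak over it.

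Over all 12 peaks, the middle was upstream of the gene in 10, in a 5′ UTR exon in 1 and in an intron in 1, and in a coding exon in 0. A peak covered a TSS in 9 of 10 genes, compared with 77.7% of the protein-coding genes that have a gene-proximal peak (6875 of 8850). The nearest middle was upstream of the TSS in 9 of 10 genes, against 75.1% of the same genes, and in all 8 genes with a RefSeq start when that start was used. Having 2 or more gene-proximal peaks was the case for 2 of 10 genes, against 25.5%. These shares lie near those of the bound genes in general, and with 10 genes a difference of this size cannot be resolved.

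The nearest peaks had a median signed distance of -19.0 bp and ranged from -257 to 38 bp. With RefSeq starts the median was -51 bp over 8 genes. Among all 8850 bound protein-coding genes the median was -33.0 bp and the quartiles were -73.0 and -1.0 bp, all from GENCODE starts. The median of the 10 genes was thus closer to the TSS than that of the bound genes with GENCODE starts, and the RefSeq value was further away, so that no order is read from these medians. Without *Pole2*, the other 9 genes spanned -81 to 38 bp. Of the bound genes, 71.4% had their nearest middle within 81 bp of a TSS, and 7.77% had it as far away as that of *Pole2* or further. With GENCODE starts the position at 9 of the genes was thus among the frequent positions of BAP1 peaks, and that at *Pole2* belonged to the outer part of the distribution.

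**Figure D2:**
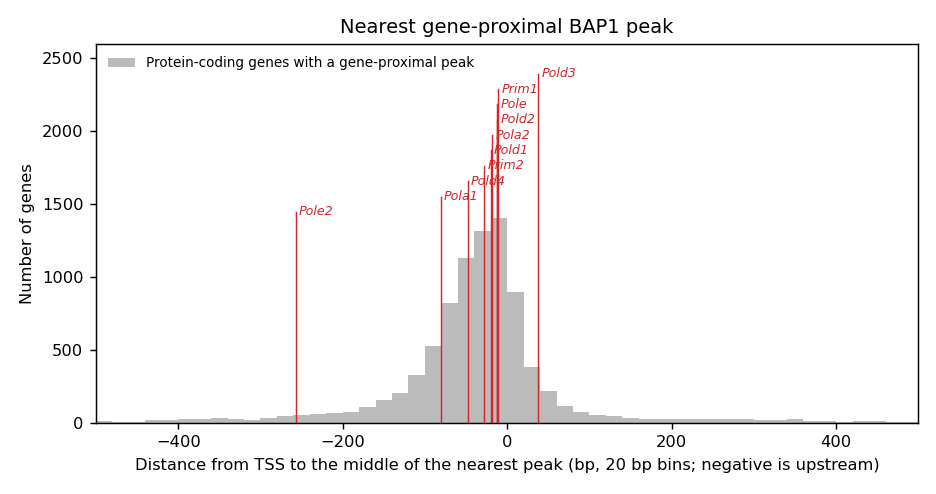
Number of protein-coding genes by the signed distance in bp from their TSS to the middle of the nearest gene-proximal peak (gray bars, bins of 20 bp, negative is upstream), with the 10 genes as red lines whose height has no meaning. Of these, 9 lie between -81 and 38 bp, and *Pole2* lies at -257 bp.

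In the annotation the 10 genes have 45 distinct TSSs, and 23 of these had a gene-proximal peak. The other 22 all lay within the genes, between 1528 and 141209 bp downstream of the first TSS, and the closest of them was 1540 bp from any peak. Of the transcripts that start there, 18 are retained introns, 2 are processed transcripts and 2 are protein-coding. The protein-coding ones were the shorter transcript of *Prim2*, which starts 47645 bp into the gene, and a transcript of *Pole* that starts 44391 bp into it. At *Pold1*, 8 of 12 TSSs lacked a peak, and at *Pold3* 5 of 8. Apart from a TSS of *Pold2* 630 bp downstream of its first, no TSS with a peak lay more than 116 bp from the first TSS of its gene.

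Gene bodies carried no further peaks. The 10 genes cover 722881 bp, with *Pola1* (327389 bp) and *Prim2* (215976 bp) as the longest and *Pold4* (1733 bp) as the shortest, and 0 of them had a peak inside the gene beyond 1 kb of its TSSs. Such a peak was present in 6.38% of the bound protein-coding genes (565 of 8850), so that none among 10 is close to the number the general share would give.

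The surroundings of the genes differed more. A further peak within 50 kb of a TSS was found at 8 of 10 genes, against 69.3% of the bound protein-coding genes. *Pola1* and *Prim2* had none. The nearest other peak lay 200067 bp from any TSS of *Pola1* and 88027 bp from any TSS of *Prim2*, and the single peak at each of these genes therefore stood alone. The 8 other genes had 18 such peaks, of which 16 were gene-proximal for another gene and 2 were further than 1 kb from every annotated TSS. The last 2 lay 39.3 kb downstream of the start of *Pola2* and 25.8 kb downstream of that of *Pold4*. *Pold4* and *Pole2* had 4 such peaks each. Those around *Pold4* included peaks at *Rad9*, a checkpoint clamp gene, and at *Ppp1ca*, a phosphatase gene, and the closest to *Pole2* was at *Klhdc1*, 13.8 kb upstream. The closest to any member was at *Nr1h2*, a nuclear receptor gene, 5.1 kb upstream of *Pold1*. Downstream of *Pold2*, at 40.2 and 40.7 kb, were the peaks of *Polm*, which encodes another DNA polymerase, used in end joining.

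**Figure D3:**
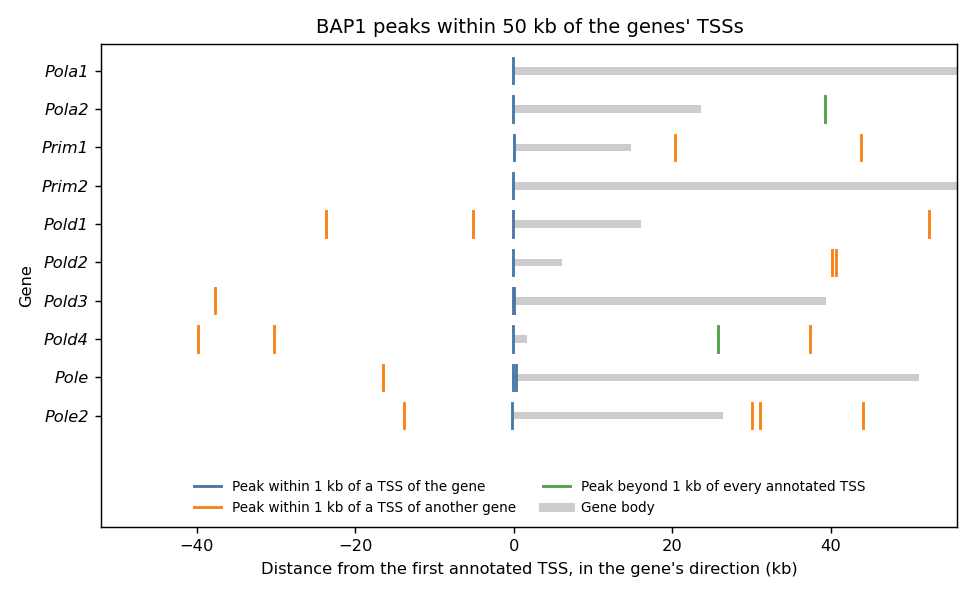
BAP1 peaks (vertical lines) by distance in kb from the first annotated TSS of each gene, for peaks within 50 kb of any of its TSSs. Blue lines are gene-proximal for the gene itself, orange lines for another gene, and green lines for none, and gray bars are gene bodies, which run past the right edge for *Pola1* and *Prim2*. *Pola1* and *Prim2* show a single line each.

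The peaks of *Prim2* and *Pole* were gene-proximal for a divergent neighbor as well, which was the case for 2 of 10 genes and for 32.7% of the bound protein-coding genes (2890 of 8850). *Prim2* and the protein-coding gene *1700001G17Rik* start 57 bp apart on opposite strands, with 56 bases between the starts, and the peak was centered almost midway, 28 bp upstream of *Prim2* and 29 bp upstream of *1700001G17Rik*. *Pole* and *Pxmp2*, which encodes a peroxisomal membrane protein, start 120 bp apart. There the middle of the nearest peak lay closer to *Pole*, at -12 bp, than to *Pxmp2*, at -108 bp, both distances being upstream. The intron 1 peak of *Pole* was within 1 kb of a TSS of *Pxmp2* as well. Which gene of such a pair a peak belongs to cannot be told from its position.

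The base composition around the TSS varied among the genes. The CpG ratio compares the CpG dinucleotides counted with the number that the C and G content would give, in a window that extends 500 bp each way from a TSS, and is low where methylation has depleted CpG over evolution. The TSS used was that closest to a peak, or that of the longest transcript for genes with none in reach. The ratio had a median of 0.715 over the 10 genes, against 0.771 over the bound protein-coding genes (quartiles 0.667 and 0.869) and 0.294 over the 13517 genes that had no such peak. The highest ratios were those of *Pole* (0.843) and *Pola2* (0.808). Ratios of 0.753, 0.741 and 0.734 were found at *Pola1*, *Pold2* and *Pold3*, and of 0.695, 0.650 and 0.646 at *Pole2*, *Prim2* and *Pold1*. *Prim1* was lower, at 0.588, and had a GC content of 47.5%, below which only 1.33% of the bound genes lay. *Pold4* stood furthest from the others, with a ratio of 0.325, and 2.26% of the bound genes had a lower one. Its GC content was 55.6%, close to the median of 55.9% over the 10 genes, so that CpG and not GC set it apart. The peak at *Pold4* covered the TSS all the same.

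**Figure D4:**
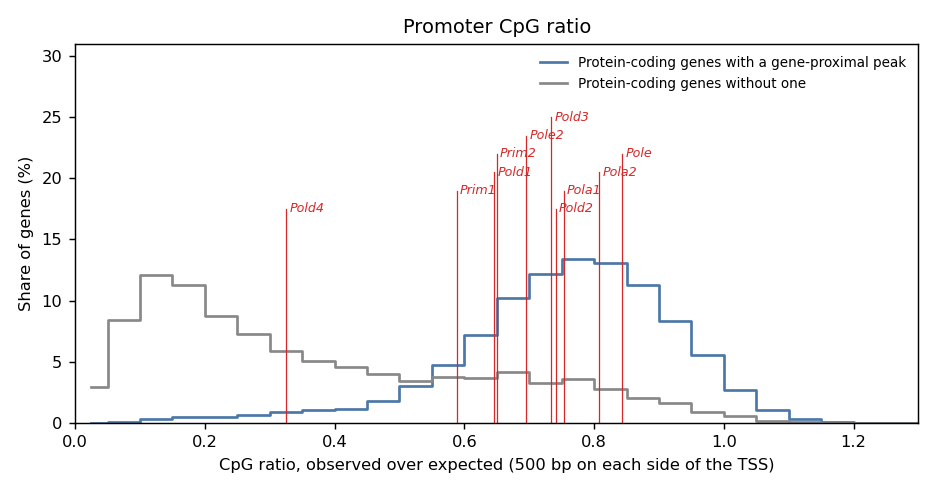
Share of genes in percent by promoter CpG ratio (bins of 0.05), for protein-coding genes with a gene-proximal peak (blue) and without one (gray), with the 10 genes as red lines whose height has no meaning. Of these, 9 lie between 0.588 and 0.843, where bound genes are frequent, and *Pold4* lies at 0.325, among values typical of genes without a peak.

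Both strands of every peak were scanned for 10 short letter strings that stand for the motifs of 9 factors or boxes, and the share of all 13164 peaks that hold each string was counted in the same way. A match is a string of letters and not a site shown to be bound. GGGCGG, the core bound by Sp factors, was in the peaks of 8 of 10 genes, *Prim1* and *Pole2* being the exceptions. Counted by peak, it was in 10 of 12, and in 59.5% of all peaks (68.6% of those that are gene-proximal). *Pole* held the most matches, 7 in its 2 peaks. CCAAT, the box bound by NF-Y, was in the peaks of 5 genes (*Pola1*, *Prim1*, *Pold2*, *Pold4* and *Pole*). By peak it was in 5 of 12, and in 28.5% of all peaks (30.0% of the gene-proximal ones). *Pold2* had 3 of these boxes. CCGGAAG, bound by ETS factors, was in the peaks of 3 genes (*Pola1*, *Prim1* and *Pold3*). By peak it was in 4 of 12, and in 16.8% of all peaks (20.2% of the gene-proximal ones). The 2 overlapping peaks of *Pold3* hold the same match, from -59 to -53 bp, so the count by peak includes this site in both. At *Pola1* the ETS string and a GGGCGG overlap by 2 bases.

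The strings TTTCCCGC and TTTGGCGC, forms of the site of the E2F factors that activate genes for S phase, were rarer. Either of them was in the peaks of 3 of 10 genes (3 of 12 peaks), and in 1.91% of all peaks and 2.29% of the gene-proximal ones. *Pola1* had TTTGGCGC from -138 to -131 bp, on the strand opposite to the gene, so that it reads as its reverse complement, GCGCCAAA, in the sequence above. *Pole* had a match to the same string from 37 to 44 bp, and *Pold3* to TTTCCCGC from 80 to 87 bp, both downstream of the TSS, where no sequence is shown. No E2F string of these forms was in the peaks of the other 7 genes, which says only that these letters are not in those 200 bp.

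CTACAANTC, part of the motif of ZNF143 and THAP11, was in the peaks of *Prim1* and *Pole2*, and in 1.72% of all peaks (2.08% of the gene-proximal ones). At *Prim1* it lay from -39 to -31 bp. At *Pole2* it lay from -283 to -275 bp, on the upstream side of the middle of the peak, and it was the only string of those searched in that peak. GCATGCGC, the site of NRF1, was in the peak of *Pold2* alone, from -108 to -101 bp, and in 4.82% of all peaks (5.80% of the gene-proximal ones). AANATGGC (YY1), TGACGTCA (CRE) and the TATA box string TATAAA were in none of the 12 peaks, and in 9.0, 3.35 and 2.41% of the gene-proximal peaks (7.60, 2.80 and 4.73% of all peaks). Whether any of these counts sets the 10 genes apart from other bound genes was not tested.

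**Figure D5:**
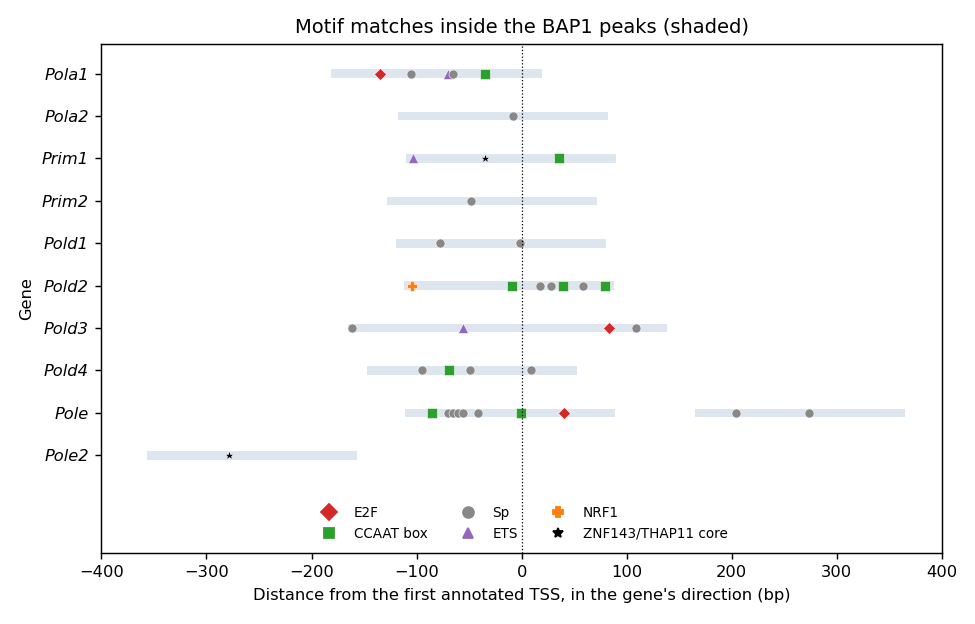
Matches to the motif strings (symbols) inside the BAP1 peaks (shaded bars) of the 10 genes, by distance in bp from the first annotated TSS (dotted line). Sp strings are at 8 genes, E2F strings at *Pola1*, *Pold3* and *Pole*, and the ZNF143/THAP11 string at *Prim1* and *Pole2*.

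The genes that work beside these subunits were counted by the same rule, from lists of names. *Pole3* and *Pole4* both had a gene-proximal peak. *Pole4* had 1, centered 38 bp upstream of a TSS, and *Pole3* had 2, centered 150 and 352 bp upstream, neither of them over a TSS. At *Pole3*, as at *Pole2*, the peaks thus lay upstream of the start without covering it. Unlike at *Pole2*, a peak of *Pole3* was also gene-proximal for another gene, *4933430I17Rik*. A further list held 15 genes of other DNA polymerases and accessory subunits, most of them for repair, mitochondria or passage of damaged bases. Of these 15, 14 had a gene-proximal peak. The exception was *Dntt*, which encodes the template-independent polymerase of V(D)J recombination and whose closest peak was 198045 bp away. The nearest middles of the 14 had a median of -73.0 bp and ranged from -268 to -15 bp, and a peak covered a TSS in 9 of them. Of 43 genes of the replication fork, 42 had a gene-proximal peak, with a median of -31.0 bp, and a peak covered a TSS in 34 of them. The exception was *Rnaseh2c*, for a subunit of the nuclease that removes ribonucleotides, with its closest peak 7632 bp away. The most peaks were at *Mcm7*, a subunit of the replicative helicase, which had 3, centered 220 and 2 bp upstream and 81 bp downstream of a TSS. All of these shares exceed the 39.6% of protein-coding genes, and as they were 10 of 10, 14 of 15 and 42 of 43, the replicative polymerases cannot be set apart from the other polymerases or the fork genes by the presence of a peak.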

How the data were processed

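ChIP-Seq of BAP1 was done in Ba/F3 cells, and the series holds 9 samples. The authors mapped the reads to mm9 with Bowtie and used MACS, with input DNA as control, to call the peaks. The submitters' processing notes give versions 1.0.0 and 1.4.2. The deposited list gives a chromosome, coordinates in bp and a name for each peak. The threshold of the caller and the rule that combined the anti-BAP1 and anti-FLAG samples are not given in the sources used here, and either would move every count. The remaining samples (3 of H2AK119ub and 4 of input DNA) were not analysed here.

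The middle of a peak was taken as its start plus 100 bp and compared with every TSS of GENCODE release M1 on the same build, without the mitochondrial genome. Signed distances follow the direction of the gene. Genes were matched by symbol, or by an older symbol in a RefSeq table (GRCm38.p6), which placed 10 of 10 members, 15 of 15 other polymerase genes and 43 of 43 fork genes. RefSeq promoters of 8 members were placed on mm9 by exact match, giving 9 starts. *Prim2* and *Pole* had no entry. The upstream stretch of *Pole* is not reported here. Shares carry 95% Wilson intervals for counting error only. No test was run, since there is 1 list without replicates. Overlapping matches of a motif were each counted, and a GGGCGG can share bases with an E2F or ETS string.

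The members and lists were chosen with earlier results of these data known. The genes named are all members, the genes that share a peak with them, and genes of the other lists with 0 or with 3 or more gene-proximal peaks. *Pole3*, *Pole4*, the gene that shares a peak with *Pole3* and the genes at peaks further away were named after their values were seen. The distances from peak to TSS and the merging of peaks were tested on simulated positions, and the motif search and base composition were not. The software was Python 3.11.15 and matplotlib 3.10.9. The alternatives tried were the edge of a peak, 1 TSS per gene, TSSs of protein-coding transcripts, windows of 500 bp and 2 kb, and merging within 500 bp. RefSeq starts were added after seeing the data.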

Additional observations from a re-analysis of the deposited data

How the results depend on the processing

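All 10 genes kept a gene-proximal peak with the nearest edge, 1 TSS per gene, protein-coding transcripts, windows of 500 bp and 2 kb, and merged peaks, and so did the 8 genes with a RefSeq start when those starts were used. A peak covered a TSS in 9 genes in each of these and in 7 of the 8 with RefSeq starts. The number of peaks was 12 except after merging within 500 bp, where it was 10, and with RefSeq starts, where it was 9 for 8 genes. The median signed distance was 0 bp when the nearest edge replaced the middle, because a peak over a TSS then counts as 0, and -24 to -19 bp in the others. With RefSeq starts it was -51 bp. The share of all protein-coding genes with a gene-proximal peak was 37.0% with 1 TSS per gene, 38.6% with a window of 500 bp and 40.4% with 2 kb. The list used here carries no heights, and neither the strength of binding nor its agreement between the antibodies was analysed here.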

Other observations

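The deposited peaks are numbered from 1 to 13164, and the list itself does not state what the number means. The paper orders the sites of its heat map by how far they lie from a TSS. At the 8 genes with a RefSeq start, the number of the nearest peak rose with its distance from that start. It went from 1501 at *Pola2* (-18 bp) to 8300 at *Pole2* (-257 bp), so the number is read here as following that distance. Of the peaks numbered 1 to 3291, 99.1% were gene-proximal. The shares were 98.5% for numbers 3292 to 6582, 94.9% for 6583 to 9873 and 13.5% for 9874 to 13164. The 12 peaks of the polymerase and primase genes all had numbers below 9874. The nearest peaks of the 10 genes had numbers from 869 (*Prim2*) to 8300 (*Pole2*), with a median of 3553.5, against a median of 4104 over the bound protein-coding genes. Of these nearest peaks that of *Pole2* had the highest number, and the other 9 genes had numbers up to 5568 (*Pola1*). At both genes with 2 peaks, the peak further from the TSS had the higher number, 7034 against 2261 at *Pold3* and 8249 against 2084 at *Pole*. With GENCODE starts the order did not hold, as *Prim1* at -11 bp had 4132 and *Prim2* at -28 bp had 869. For *Prim2* and *Pole*, which have no RefSeq start here, the reading could not be checked. If the number follows distance to a TSS, these orders and shares restate such distances. The orders and shares are no separate result and say nothing of the strength of a peak.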
